A study of Mus musculus with 21 samples.

Results

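The genes described here are the cofactors of Hox proteins from the Pbx, Meis and Pknox families, namely Pbx2, Pbx3, Pbx4, Meis1, Meis2, Meis3, Pknox1 and Pknox2. They were chosen by name, and all 8 of them were found among the 55400 genes of the tables and passed the filter on low counts in every fit. The data were RNA-seq of 21 libraries, 3 biological replicates in each of 7 groups, from wild-type C57BL/6 mouse embryonic stem cells grown on mitotically inactive mouse embryonic fibroblasts and then differentiated through embryoid bodies toward motor neurons (MNs) of the hypaxial motor column. All cultures received 1 μM all-trans retinoic acid and 0.5 μM SAG, an agonist of Sonic Hedgehog signalling, in the medium from day 2. DAPT, a Notch pathway inhibitor, was added at 5 μM to this medium at day 4. Only D4 is listed without it, so stage and DAPT cannot be told apart in the step from D4 to D4H8 or between D4 and D6. At day 5 the protocol gives DAPT in a basal medium listed without retinoic acid and SAG, so that the step from D5 to D6 and this change of medium cannot be told apart. Untreated cultures were harvested at day 4 (D4, progenitors), 8 hours later (D4H8, proneural cells), at day 5 (D5, newborn MNs) and at day 6 (D6, maturing MNs). GSKJ4, an inhibitor of the H3K27 demethylase Kdm6b, was added to separate cultures 1 day before harvest at D4H8, D5 or D6. The treated groups are therefore different cultures with 1 day of exposure each, not a series under continued exposure, and the sources used here name neither the dose in these cultures nor a vehicle given to the untreated ones. The cultures are mixtures of cells from 1 genetic background, and the tables average over the cells of a culture.

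The question these comparisons address is how the genes for Hox cofactors moved as progenitors became MNs, and whether 1 day of GSKJ4 changed them. Pbx, Meis and Pknox proteins belong to the TALE class of homeodomain proteins. Pbx proteins bind DNA together with Hox proteins, and Meis or Pknox proteins bind Pbx and are needed to keep it in the nucleus, so the complexes hold members of several families. In the spinal cord these partners take part in the Hox-dependent choice of MN column and pool, and Meis genes are known to respond to retinoic acid. In bulk cultures such as these, fewer cells of a type and less RNA per cell cannot be told apart.

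For the Meis genes, whose shares of the Meis total are described below, and for Pbx2, whose level fell, the sequences before the RefSeq starts are shown here to locate them on GRCm38.p6. The RefSeq table of promoter windows, each with 250 bases before and 50 after a start, held 5 of the 8 members (Pbx2, Pbx4, Meis1, Meis2 and Meis3) and not Pbx3, Pknox1 or Pknox2. The 250 bases before the start lie at chr11:19018970-19019219 on the minus strand for Meis1, at chr2:116064620-116064869 on the minus strand for Meis2, at chr7:16175145-16175394 on the plus strand for Meis3 and at chr17:34592009-34592258 on the plus strand for Pbx2. They are printed 5′ to 3′ with CpG pairs in capitals.
Meis1: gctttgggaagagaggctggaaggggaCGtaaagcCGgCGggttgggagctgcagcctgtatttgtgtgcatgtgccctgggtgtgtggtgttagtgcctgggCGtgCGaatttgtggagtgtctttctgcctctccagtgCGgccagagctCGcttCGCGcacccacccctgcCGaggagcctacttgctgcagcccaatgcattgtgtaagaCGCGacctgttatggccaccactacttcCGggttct
Meis2: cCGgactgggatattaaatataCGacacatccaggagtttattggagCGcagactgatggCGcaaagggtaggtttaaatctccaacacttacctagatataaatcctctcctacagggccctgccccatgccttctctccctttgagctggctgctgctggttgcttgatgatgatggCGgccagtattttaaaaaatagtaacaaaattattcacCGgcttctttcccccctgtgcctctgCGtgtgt
Meis3: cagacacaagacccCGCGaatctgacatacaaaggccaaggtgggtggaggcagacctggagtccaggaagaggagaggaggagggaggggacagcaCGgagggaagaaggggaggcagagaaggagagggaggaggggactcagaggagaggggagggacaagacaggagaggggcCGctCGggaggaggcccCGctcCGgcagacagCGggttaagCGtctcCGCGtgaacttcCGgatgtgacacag
Pbx2: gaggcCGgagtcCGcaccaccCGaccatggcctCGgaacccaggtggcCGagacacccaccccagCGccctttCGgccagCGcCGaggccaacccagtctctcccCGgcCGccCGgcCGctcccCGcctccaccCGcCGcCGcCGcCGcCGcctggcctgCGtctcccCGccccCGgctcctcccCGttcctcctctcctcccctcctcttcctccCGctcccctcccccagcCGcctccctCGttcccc

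Over the whole windows the CpG count was 15 for Meis1, 13 for Meis2, 21 for Meis3 and 29 for Pbx2, beside a median of 7 over all 32851 windows of the table. Pbx2 was the richest of the 4, and 12.9% of all windows held at least as many CpG pairs. GC content was 58.3% for Meis1, 51% for Meis2, 66.7% for Meis3 and 76% for Pbx2, beside a median of 52.7%. The motifs TGACAG, a Meis and Pknox half-site, and TGATNNAT, a Pbx-Hox site, were searched on both strands. TGACAG was present in 19.2% of all windows and TGATNNAT in 8.85%, and neither set of letters was in any of the 5 members' windows.

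Library totals were between 14982115 and 34383842 counts with a median of 16238435, and the lowest count of any member in any library was 44, for Pbx4. Replicate 2 of GSKJ4-treated D5 stood apart, where 39381 genes had no count, while the other 20 libraries had 29339 to 32805 such genes. Markers of postmitotic MNs (Isl1, Isl2, Mnx1, Lhx3, Lhx4, Slc18a3 and Chat) summed to 7.64 to 19.5 FPKM at D4 and to 427 to 497 FPKM at D6, where all 7 had a mean of at least 1 FPKM. Spinal interneuron markers summed to at most 10.4 FPKM in any library and feeder fibroblast markers to at most 29 FPKM. Pluripotent cell markers summed to 31.5 to 76.8 FPKM at D4 and to 6.19 to 42.3 FPKM at D6. Kdm6b itself was present in every library, and since GSKJ4 acts on the enzyme its transcript does not check the treatment.

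Across the untreated stages the members went 3 ways. Meis3, Pbx3, Meis1, Meis2 and Pknox1 were higher at D6 than at D4, Pbx2 and Pknox2 were lower, and Pbx4 did not pass the test. Tested with edgeR's quasi-likelihood method, adjusted over 17519 genes by Benjamini and Hochberg, 5 of the 8 members rose and 2 fell between D4 and D6. The background was high, since 63.9% of all genes tested were called in this comparison, 32.9% as higher and 31% as lower, so that 7 called members are not read as a result about them. The size and the timing of the changes differed between members, and these are given below in FPKM. This is the authors' unit per kilobase of exons, scaled to the counted reads. Levels of different genes can be compared in it as far as the exonic length used fits the transcripts present.

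Meis3, a Meis gene best known for its part in caudal neural patterning, changed most among the members. It was at 5.12, 6.67 and 5.36 FPKM in the 3 D4 libraries, 19.4, 15.4 and 13.7 FPKM at D4H8, 26.7, 37.1 and 39.9 FPKM at D5 and 52.5, 46.3 and 44.0 FPKM at D6. The groups did not overlap at any step, and every later stage was above the one before. Between D4 and D6 its log2 fold change was 3.13 (SE 0.19, adjusted p = 7.25e-09 by edgeR's quasi-likelihood test), or 8.75-fold. It was also the only member called between D4 and D4H8, with a log2 fold change of 1.46 (SE 0.18, adjusted p = 0.000209 by the same test), or 2.75-fold within 8 hours. DAPT was present in these 8 hours and not before, so time and DAPT cannot be told apart here. In that step 4.38% of all genes tested were called, 4.06% as higher and 0.32% as lower, and 1 of 8 members was called. At D6 Meis3 was the highest of the 8 members, at 47.6 ± 4.36 FPKM (SD, n = 3), after ranking 6th at D4.

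Pbx3, whose loss in mice is known to disturb the brainstem control of breathing, rose later. Its levels were 7.78, 6.89 and 6.31 FPKM at D4 and 8.84, 7.93 and 7.51 FPKM at D4H8, where the groups overlapped. They were 16.7, 20.7 and 18.2 FPKM at D5 and 37.7, 43.0 and 34.4 FPKM at D6, with no overlap at either step. It rose 2.29-fold between D4H8 and D5 (SE 0.15 on the log2 scale, adjusted p = 4.48e-05, edgeR's quasi-likelihood test) and 2.24-fold in the day after (SE 0.15, adjusted p = 5.83e-05). From D4 to D6 Pbx3 rose 5.69-fold. In the first 8 hours its log2 change was 0.15 with a 95% interval from -0.17 to 0.47.

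Meis1, known for its roles in blood stem cells and in the proximal limb, followed the timing of Pbx3 with a smaller change. It was at 10.4, 9.35 and 9.21 FPKM at D4, 10.8, 9.93 and 9.27 FPKM at D4H8, 13.5, 18.6 and 14.8 FPKM at D5 and 23.4, 23.1 and 19.3 FPKM at D6. D4 and D4H8 overlapped almost fully, while D5 lay above D4H8 and D6 above D5. The log2 fold change was 0.64 (SE 0.15, adjusted p = 0.00576, edgeR's quasi-likelihood test) at the D5 step and 0.61 (SE 0.15, adjusted p = 0.00697) at the D6 step. Without D5 replicate 2, the highest of its group, the first of these became 0.45 with an adjusted p of 0.0527, the highest over its alternatives, which began at 0.000413. Of the exonic bases of Meis1, 8.51% overlap an antisense gene with a mean count of 2.05 and 9.77% overlap another gene on the same strand with a mean count of 68.8, against a mean count of 2605 for Meis1.

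Meis2, a regulator in neural crest and limb, rose in 1 step. Its levels were 14.1, 12.6 and 14.0 FPKM at D4, 14.9, 13.9 and 13.9 FPKM at D4H8, 16.5, 26.5 and 22.1 FPKM at D5 and 22.5, 26.0 and 21.6 FPKM at D6. All D5 libraries were above all D4H8 libraries, and D5 and D6 overlapped. From D4H8 to D5 the log2 fold change was 0.61 (SE 0.15, adjusted p = 0.00817, edgeR's quasi-likelihood test), and without D5 replicate 2 it was 0.39 with an adjusted p of 0.0706, in a range over alternatives from 0.00097. From D5 to D6 it was 0.23 with a 95% interval from -0.10 to 0.55. Meis2 was the most abundant Meis gene at D4 and the second of the 3 at D6.

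**Figure D1:**
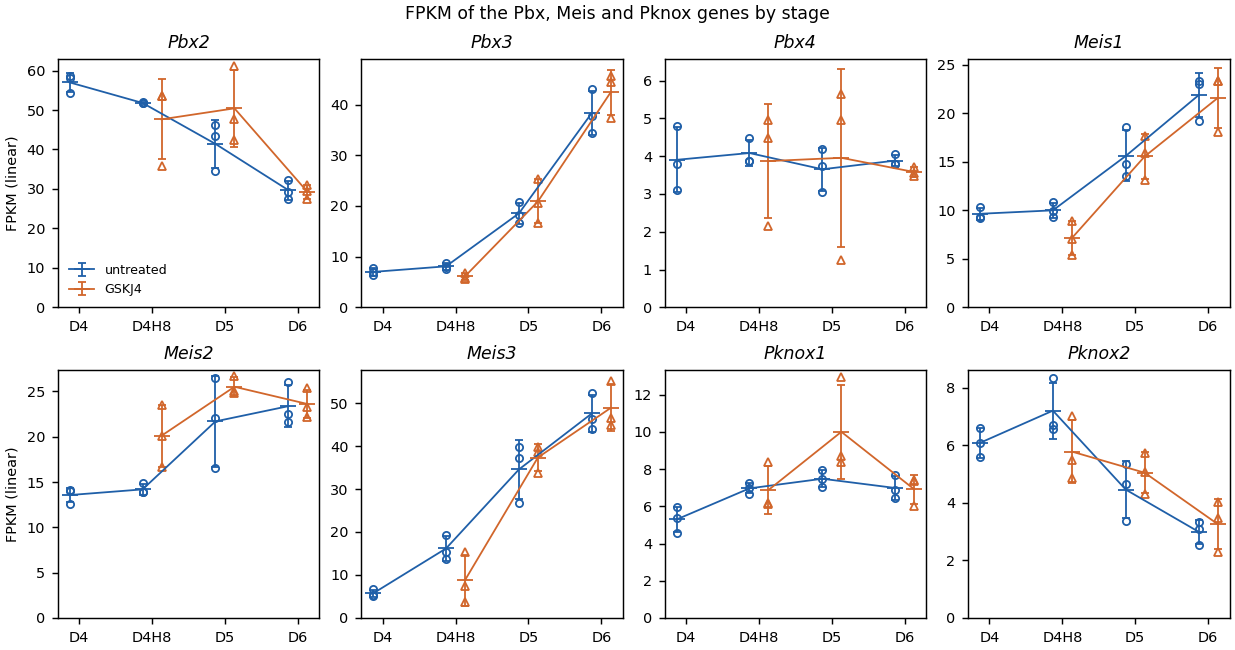
FPKM (linear axis, starting at 0) of each member by stage, with 1 open symbol per library, the group mean as a dash and the SD as bars, in blue for untreated and orange for GSKJ4-treated cultures, which are separate cultures at each stage joined by lines only for reading. Pbx3, Meis1 and Meis3 climb to D6 while Pbx2 and Pknox2 descend, and the colours separate most at D4H8, where Meis3 spans 3.64 to 15.3 FPKM under GSKJ4.

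Pbx2, a broadly expressed Pbx gene, moved opposite to Pbx3. It was at 58.6, 54.3 and 58.1 FPKM at D4, 51.7, 52.0 and 51.7 FPKM at D4H8, 34.7, 46.1 and 43.5 FPKM at D5 and 27.5, 29.3 and 32.3 FPKM at D6. Each stage lay wholly below the one before. From D4 to D6 its log2 fold change was -0.88 (SE 0.12, adjusted p = 1.78e-05, edgeR's quasi-likelihood test), or 1.84-fold lower. The single steps were smaller, with log2 values of -0.19 (adjusted p = 0.437), -0.32 (adjusted p = 0.0566) and -0.37 (adjusted p = 0.0282) in the same fit. The call from D5 to D6 was lost without D5 replicate 2 (adjusted p = 0.0923) or 3 (0.0588), without D6 replicate 1 (0.0843) or 2 (0.0877) and with no filter on low counts (0.0746), while its adjusted p over all alternatives ran from 0.00818 to 0.0923. The step from D4H8 to D5 was called in 8 of 19 alternatives, with adjusted p from 0.0191 to 0.198, among them those without D4 replicate 1 (0.036) or 3 (0.0253) and without D5 replicate 2 (0.0191) or 3 (0.0448). Of the exonic bases of Pbx2, 6.24% overlap Gpsm3 on the same strand, which had a mean count of 40.1 against 2824 for Pbx2.

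The level of Pbx2 started well above that of Pbx3 and ended below it. At D4 the means were 57.0 ± 2.35 FPKM for Pbx2 and 6.99 ± 0.74 FPKM for Pbx3 (SD, n = 3 each). At D6 they were 29.7 ± 2.42 and 38.4 ± 4.35 FPKM (SD, n = 3 each), and the lowest Pbx3 library, at 34.4 FPKM, was above the highest Pbx2 library, at 32.3 FPKM. Pbx4, a Pbx gene known mainly from the testis, stayed lowest of the 3 Pbx genes analysed here. Its untreated means were between 3.65 and 4.08 FPKM, and its log2 change from D4 to D6 was 0.07 with a 95% interval from -0.33 to 0.47 and an adjusted p of 0.757 by edgeR's quasi-likelihood test. Upper-quartile scaling turned the sign of that value to -0.08 (adjusted p = 0.711, in a range from 0.52 to 0.95 over the alternatives).

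The 2 Pknox genes, also called Prep genes, went opposite ways from lower levels. Pknox1, which is needed for early embryonic development, was at 4.57, 5.95 and 5.36 FPKM at D4, 7.23, 6.68 and 6.99 FPKM at D4H8, 7.03, 7.49 and 7.93 FPKM at D5 and 7.66, 6.44 and 6.86 FPKM at D6. All libraries of the later stages were above all D4 libraries. From D4 to D6 its log2 fold change was 0.48 (SE 0.12, adjusted p = 0.00368, edgeR's quasi-likelihood test), while no single step passed the test and the first came nearest, at 0.35 (adjusted p = 0.144). With 1 fit over all 21 libraries the adjusted p of the D4 to D6 change was 0.056, the highest of a range from 0.000832. Of its exonic bases 2.24% overlap an antisense gene with a mean count of 26.9, against 866 for Pknox1.

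Pknox2, the less studied paralogue, was at 6.08, 5.58 and 6.60 FPKM at D4, 8.33, 6.71 and 6.58 FPKM at D4H8, 3.38, 4.66 and 5.34 FPKM at D5 and 3.08, 2.55 and 3.35 FPKM at D6. D4 and D4H8 overlapped, and every D5 and D6 library was below them. From D4H8 to D5 it fell by 0.70 on the log2 scale (SE 0.17, adjusted p = 0.0071, edgeR's quasi-likelihood test), and from D4 to D6 by 0.96 (SE 0.17, adjusted p = 0.000233), a 1.95-fold lower level. The step from D5 to D6 was -0.46 with an adjusted p of 0.054, and it was called in 6 of 19 alternatives, with adjusted p from 0.0136 to 0.199, among them those without D4 replicate 1 (0.0433), without D4H8 replicate 1 (0.0452) and without D5 replicate 1 (0.0136).

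Step by step, 1 of 8 members was called from D4 to D4H8, 5 in the step to D5 (4 higher and 1 lower) and 4 in the step to D6 (3 higher and 1 lower). The background share of genes called was 27.7% in the step to D5, with 17.2% higher and 10.5% lower, and 34.3% in the step to D6, with 19.2% higher and 15.1% lower. Groups did not overlap in TMM-scaled CPM for 3, 6 and 4 members in the 3 steps, where 25.6%, 43.7% and 46.9% of all genes did not. From D4 to D6 the groups did not overlap for 7 members, beside 70% of all genes. DESeq2 called 1, 6 and 4 members in the 3 steps, beside 6.78%, 31.1% and 36.8% of all genes. From D4 to D6 it called 7, beside 64.7%. Meis3 from D5 to D6 had a log2 fold change of 0.58 (SE 0.17, adjusted p = 0.0184, edgeR's quasi-likelihood test). That call was lost without D5 replicate 1 (adjusted p = 0.0676), without D6 replicate 1 (0.0796) and with 1 fit over all 21 libraries (0.204), in a range over alternatives from 0.00143.

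**Figure D2:**
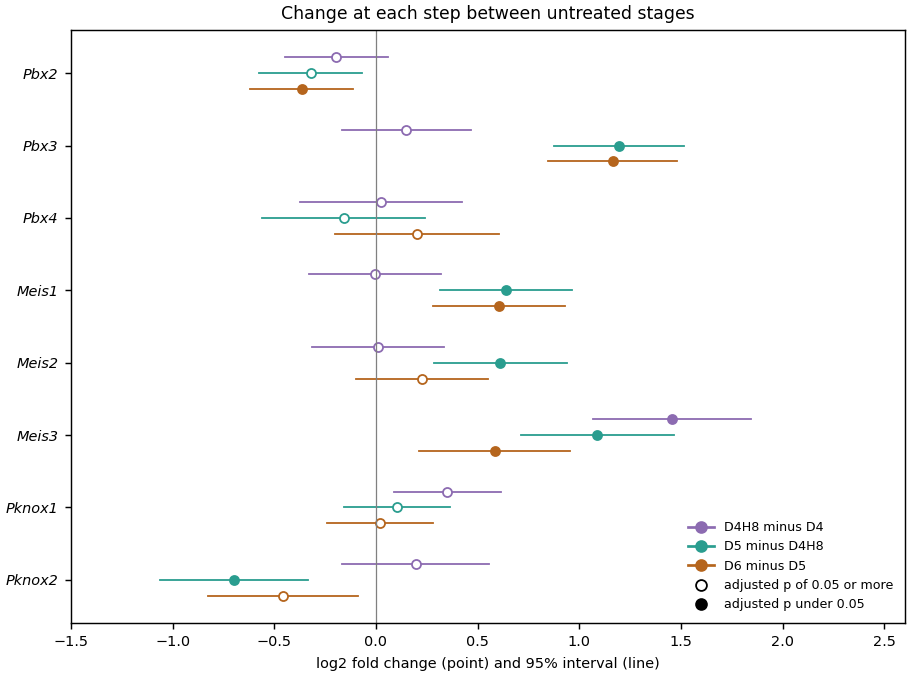
Log2 fold change (point) and 95% interval (line) of each member at the 3 steps between untreated stages, 3 libraries per stage, with filled points for an adjusted p under 0.05. Meis3 is called at all 3 steps with values of 1.46, 1.09 and 0.58, Pbx3 and Meis1 from D4H8 on, and Meis2 and Pknox2 from D4H8 to D5 alone.

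The order of the 8 levels changed with stage. At D4 it was Pbx2, Meis2, Meis1, Pbx3, Pknox2, Meis3, Pknox1 and Pbx4 from high to low, and from Pbx3 downward each neighbour overlapped the next. At D4H8 Meis3 had moved to the second place, overlapping Meis2 behind it. At D5 Pbx2 (41.4 ± 5.99 FPKM) and Meis3 (34.6 ± 6.96 FPKM, SD, n = 3 each) overlapped at the top. At D6 it was Meis3, Pbx3, Pbx2, Meis2, Meis1, Pknox1, Pbx4 and Pknox2, and of these neighbours only Meis2 and Meis1 overlapped.

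Within the Meis family the sum of the 3 genes rose from 28.9 ± 0.56 FPKM at D4 to 40.4 ± 4.26 at D4H8, 71.9 ± 13.4 at D5 and 92.9 ± 7.03 at D6 (SD, n = 3 each). Its composition shifted as it grew. Meis3 held 19.8 ± 3.12% of the sum at D4, 39.8 ± 2.96% at D4H8, 48.1 ± 3.53% at D5 and 51.2 ± 2.46% at D6 (SD, n = 3 each). Meis2 held 46.9 ± 2.54% at D4 and 25.2 ± 2.2% at D6, and Meis1 held 33.3 ± 1.56% and 23.5 ± 0.77%. By these shares the Meis family went from a Meis2-led to a Meis3-led composition, with the 3 D4 and 3 D6 libraries apart for each gene. Which gene leads rests on the exonic lengths used, 3173 bases for Meis3 and 12043 for Meis2. In TMM-scaled CPM, which leaves length out, the D6 means were 157.7 for Meis3, 240.7 for Meis1 and 293 for Meis2.

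The GSKJ4 comparison was made at each stage against untreated cultures of the same stage. At D4H8 none of the 8 members passed the adjusted threshold, and 4 had an unadjusted p under 0.05, namely Pbx3, Meis1 and Meis3 with lower and Meis2 with higher values. The background there was 3.96% of 16269 genes called by edgeR's quasi-likelihood test after adjustment, and 25.1% with an unadjusted p under 0.05. DESeq2 also called no member, with 4 at an unadjusted p under 0.05, beside 13.6% of all genes called by it. Groups did not overlap in CPM for 3 members, beside 33.7% of all genes.

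Meis3 had the largest difference of the 8, and its treated libraries were spread widely. It was at 15.3, 3.64 and 7.46 FPKM in GSKJ4-treated replicates 1 to 3, against 19.4, 15.4 and 13.7 FPKM in the untreated D4H8 libraries. Treated replicates 2 and 3 were below all untreated libraries and treated replicate 1 was among them. The log2 fold change was -0.95 (SE 0.41, 95% interval from -1.87 to -0.03), with an adjusted p of 0.187 by edgeR's quasi-likelihood test. Without treated replicate 1 it was -1.59 with an adjusted p of 0.0408, and with no filter on low counts the adjusted p was 0.00301. Over 13 alternatives the adjusted p ran from 0.00301 to 0.469, and 4 of them called it.

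Meis2 went the other way at the same stage. Its treated libraries were at 23.6, 20.1 and 16.7 FPKM, against 14.9, 13.9 and 13.9 FPKM untreated, so that every treated library was above every untreated one. The log2 fold change was 0.47 (SE 0.19, 95% interval from 0.04 to 0.90, unadjusted p = 0.0345, adjusted p = 0.165 by edgeR's quasi-likelihood test). Meis1 was at 8.92, 5.45 and 7.06 FPKM with GSKJ4 and 10.8, 9.93 and 9.27 FPKM without, with no overlap and a log2 fold change of -0.53 (SE 0.19, 95% interval from -0.97 to -0.10, adjusted p = 0.128 by the same test). Pbx3 was at 6.87, 5.68 and 5.79 FPKM with GSKJ4 and 8.84, 7.93 and 7.51 FPKM without, likewise with no overlap, at -0.44 (SE 0.18, 95% interval from -0.85 to -0.04, adjusted p = 0.167). No alternative called Meis1, Meis2 or Pbx3, with adjusted p from 0.0684 to 0.494 over the 3 genes.

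The composition of Meis expression at D4H8 is given by library, as 3 shares that add up to the whole and are not separate results. Meis2 held 49.3%, 68.9% and 53.4% of the summed Meis FPKM in GSKJ4-treated replicates 1 to 3, against 33.0%, 35.3% and 37.6% in the untreated ones. Meis3 held 32.0%, 12.5% and 23.9% with GSKJ4 and 43.0%, 39.3% and 37.2% without. Neither gene's groups overlapped, and the mean share of Meis2 was 21.9 percentage points higher and that of Meis3 17.1 points lower with GSKJ4, while Meis1 was 4.85 points lower. The exact two-sided permutation test of 3 against 3 libraries gave p = 0.1 for each, the smallest p this design allows, so the test could not reach 0.05. The sum itself was 36.0 ± 10.2 FPKM with GSKJ4 and 40.4 ± 4.26 FPKM without (SD, n = 3 each). At D5 and D6 the treated and untreated shares of each Meis gene overlapped, with exact p between 0.3 and 1.

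**Figure D3:**
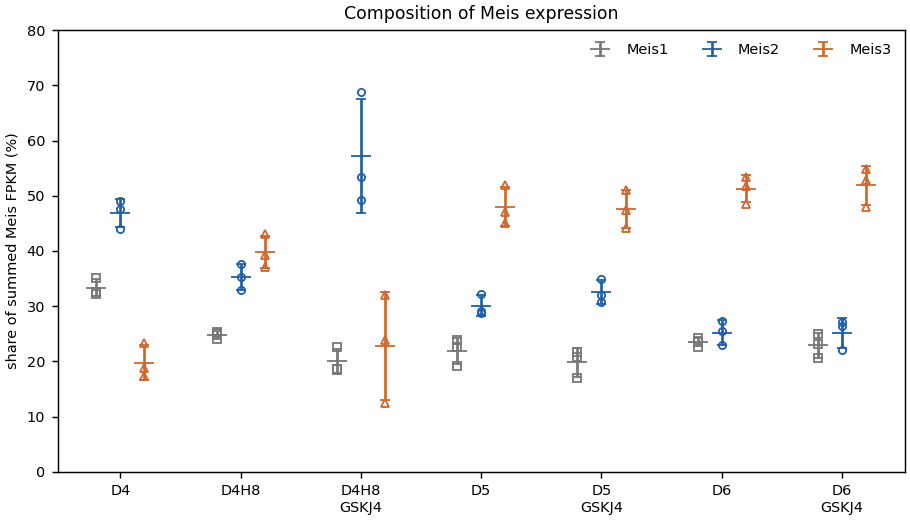
Share of the summed Meis FPKM (in percent, linear axis from 0) held by Meis1 (grey squares), Meis2 (blue circles) and Meis3 (orange triangles) in each of the 21 libraries, with group means as dashes and SD as bars. Meis3 climbs from a mean of 19.8% at D4 to 51.2% at D6, and in the GSKJ4-treated D4H8 group Meis2 leads with a mean of 57.2%.

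MN markers also differed with GSKJ4 at D4H8. Progenitor markers (Olig2, Olig1, Nkx6-1, Nkx6-2, Sox2 and Pax6) summed to 44 to 96.7 FPKM in the treated libraries and to 229 to 313 FPKM in the untreated ones, and 4 of 6 fell by edgeR's quasi-likelihood test. Postmitotic MN markers summed to 12.5 to 28.8 FPKM against 57.9 to 62.6 FPKM, and 3 of 7 fell. DESeq2 called 5 of the 6 and 5 of the 7 as lower. The shares of all genes called were 3.96% by edgeR and 13.6% by DESeq2. Pluripotent cell markers ran from 38.4 to 101 FPKM with GSKJ4 and from 13.6 to 65.4 FPKM without, and feeder fibroblast markers from 10.3 to 29 and from 6.11 to 14.5 FPKM, with 0 of 5 and 0 of the 6 tested called by edgeR or DESeq2 and 0 and 1 at an unadjusted p under 0.05 in edgeR. Spinal interneuron markers summed to 5.53 to 8.18 FPKM with GSKJ4 and to 3.27 to 4.86 FPKM without, so that the groups were apart at low levels. Lmx1b was at 3.20 to 4.40 FPKM against 1.38 to 3.11 and Pou4f1 at 0.89 to 1.36 FPKM against 0.32 to 0.63, 1 of the 9 markers was at 0 in all libraries of each group, and of the 4 tested 0 were called by either tool and 2 had an unadjusted p under 0.05 in edgeR. The part of any of these in the values of Meis1, Meis2, Meis3 and Pbx3 was not tested.

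At D5, 0 of 8 members were called with GSKJ4 and 0 had an unadjusted p under 0.05, by edgeR's quasi-likelihood test and by DESeq2. In the background edgeR called 0.00613% of 16309 genes and DESeq2 0.448%, and 4.7% had an unadjusted p under 0.05 in edgeR. Pknox1 was the member whose groups did not overlap, where 11.7% of all genes did not. It was at 8.71, 12.9 and 8.38 FPKM with GSKJ4 and 7.03, 7.49 and 7.93 FPKM without, for a log2 fold change of 0.37 (SE 0.19, 95% interval from -0.05 to 0.79, adjusted p = 0.976 by edgeR's quasi-likelihood test). Its highest value came from treated replicate 2, the library with the most genes at 0 counts, and the lowest Pbx4 value of the series, 1.26 FPKM, came from the same library. The widest interval at D5 was that of Pbx4, from -0.998 to 1.18. The log2 values were -0.05 for Meis1, 0.19 for Meis2 and 0.07 for Meis3, with overlapping groups. Postmitotic MN markers at D5 summed to 151 to 181 FPKM with GSKJ4 and to 243 to 290 FPKM without, with 0 of 7 called and 6 at an unadjusted p under 0.05 by edgeR and 4 lower by DESeq2, and their part in the members' values was not tested.

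At D6, 0 of 8 members were again called and 0 had an unadjusted p under 0.05 without pairing, by both tools. In the background edgeR called 0% of 16301 genes and DESeq2 0.00613%, and 1.36% had an unadjusted p under 0.05 in edgeR. The log2 values of the members were between -0.12 for Pbx4 and 0.14 for Pbx3, and the 95% intervals of all 8 without pairing lay between -0.50 and 0.63. Meis3 was at 55.2, 45.0 and 46.5 FPKM with GSKJ4 and 52.5, 46.3 and 44.0 FPKM without, and its interval without pairing ran from -0.30 to 0.36. Pbx3 was at 44.4, 45.6 and 37.4 FPKM with GSKJ4 and 37.7, 43.0 and 34.4 FPKM without. Both genes overlapped between the groups. The replicate numbers pair the samples at this stage, and Pbx3 was higher with GSKJ4 in 3 of 3 pairs. With the replicate block its log2 value was 0.14 (SE 0.04, unadjusted p = 0.00391), with an adjusted p of 0.135 by edgeR's quasi-likelihood test, in a range over alternatives from 0.135 to 1. No other member had an unadjusted p under 0.05 with the block. Every member's SE was lower with the block than without it, so the intervals above do not use the pairing. With the block the log2 values were 0.03 for Meis3 (SE 0.05), -0.03 for Meis1 (SE 0.04) and 0.01 for Meis2 (SE 0.04). Their SEs without it were 0.14, 0.16 and 0.11. Pbx4 was the member without overlap, at 3.56, 3.47 and 3.71 FPKM against 3.79, 3.80 and 4.06 FPKM, beside 5.29% of all genes without overlap.

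**Figure D4:**
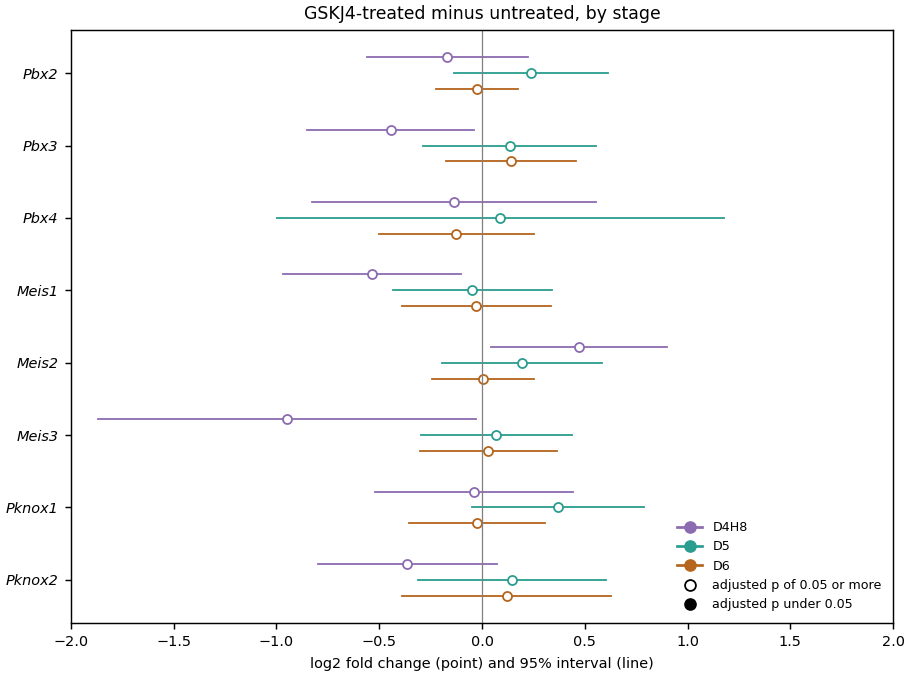
Log2 fold change of GSKJ4-treated over untreated libraries (point) with its 95% interval (line) for each member at D4H8, D5 and D6, 3 against 3 libraries at each stage. No point is filled because no adjusted p was under 0.05, the D4H8 intervals of Pbx3, Meis1, Meis2 and Meis3 leave out 0, and the D6 intervals lie between -0.50 and 0.63. All intervals are from fits without pairing.

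Whether the GSKJ4 difference itself changed with stage was tested as an interaction over the 18 libraries of these stages. The difference between the D5 and the D4H8 effect was 1.01 for Meis3 (SE 0.44, unadjusted p = 0.034) and 0.57 for Pbx3 (SE 0.26, unadjusted p = 0.0381), by edgeR's quasi-likelihood test, with adjusted p of 0.45 and 0.465. Between D6 and D4H8 it was 0.99 for Meis3 (SE 0.44, adjusted p = 0.328) and 0.60 for Pbx3 (SE 0.26, adjusted p = 0.313). No member was called in these or in the difference between D6 and D5, where the backgrounds were 0.249%, 0.735% and 0% of 18103 genes. At an unadjusted p under 0.05 there were 2, 2 and 0 members, beside 10%, 13.7% and 1.98% of all genes, and DESeq2 called none and gave the same 3 counts. Of all genes DESeq2 called 1.36%, 3.33% and 0.00552% in these differences. Without D4H8 GSKJ4 replicate 1 the values for Meis3 were 1.67 (adjusted p = 0.0142, in a range from 0.0142 to 0.788) and 1.65 (adjusted p = 0.0115, in a range from 0.0115 to 0.631).

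Among the treated cultures alone, 3 members were higher at D5 than at D4H8. These were Pbx3, with a log2 fold change of 1.76 (SE 0.22, adjusted p = 0.000408), Meis1 with 1.11 (SE 0.22, adjusted p = 0.0058) and Meis3 with 2.08 (SE 0.38, adjusted p = 0.00387), by edgeR's quasi-likelihood test, beside 14.2% of 17217 genes called and 9.59% called as higher. Meis2 was at 0.32 (SE 0.19, adjusted p = 0.304) although its treated D5 libraries, from 24.8 to 26.7 FPKM, were all above its treated D4H8 libraries. Groups did not overlap in CPM for 4 members at this step and 4 at the next, beside 33.6% and 40.9% of all genes. From D5 to D6, Pbx3 rose with 1.14 (SE 0.22, adjusted p = 0.00692) and Pbx2 fell with -0.66 (SE 0.18, adjusted p = 0.0386), beside 11.9% of genes called, 7.24% as higher and 4.7% as lower. Meis1 was at 0.59 (SE 0.21, adjusted p = 0.0949) in the same fit, with groups that did not overlap. It was called in 2 of 16 alternatives, by DESeq2 (0.65, adjusted p = 0.0308) and with 1 fit over all 21 libraries (0.58, adjusted p = 0.0274). DESeq2 called 3 members in this step, beside 19.1% of all genes. The Pbx2 call was lost without treated D5 replicate 2 (adjusted p = 0.135) or 3 (0.0926), without treated D6 replicate 1 (0.144), 2 (0.115) or 3 (0.117), with RLE scaling (0.0521) and with no filter (0.0572), in a range from 0.00195 to 0.144. These treated libraries also enter the GSKJ4 comparisons, so the values are not independent of those above.

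The proteins with which these cofactors act are encoded by the Hox genes, of which 29 of 39 were tested over the untreated stages. From D4 to D4H8, 4 Hox genes rose and 0 fell, led by Hoxb6 at a log2 fold change of 1.35, beside 4.38% of all genes called. DESeq2 called 9 higher there, beside 6.78% of all genes called, and 13 had an unadjusted p under 0.05 in edgeR. In the step to D5 there were 9 that rose and 1 that fell, beside 17.2% of all genes called as higher and 10.5% as lower. In the step to D6 the counts were 2 and 12, beside 19.2% and 15.1%. From D4 to D6, 10 rose and 6 fell, beside 63.9% of all genes called, 32.9% as higher and 31% as lower. The median log2 change was 0.38 beside -0.04 over all genes, the highest being Hoxa6 at 3.60 and the lowest Hoxb1 at -5.09. With GSKJ4 at D4H8, 2 rose and 2 fell by edgeR's quasi-likelihood test, with a median of -0.06 beside 0.02 over all genes and with 3.96% of all genes called. DESeq2 called 5 higher and 4 lower there, beside 13.6% of all genes, and 14 of the 29 had an unadjusted p under 0.05 in edgeR. Of those called by edgeR, Hoxb1 had the highest value, at 1.09, and Hoxd4 the lowest, at -2.25. With GSKJ4 at D5 and D6, 0 of 28 and 0 of 24 tested were called by edgeR and by DESeq2, with 3 and 1 at an unadjusted p under 0.05 in edgeR.

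Of a list of 10 genes, the other TALE genes and Pbxip1 (a Pbx-binding protein), 6 rose and 2 fell from D4 to D6, with a median of 1.30. The share of all genes called in this comparison was 63.9%, with 32.9% as higher and 31% as lower. Counted in either direction, the calls in this list and in the next 2 lists are near 63.9%. By direction, more genes rose than fell in this list and among the column and pool genes, but not among the retinoic acid genes. Irx1, an Iroquois gene of neural patterning, had the highest value at 5.80, and Tgif2, a repressor in TGF-β signalling, the lowest at -2.06. With GSKJ4, 0 of the 9 tested were called by edgeR at D4H8, D5 and D6, with 0, 3 and 2 at an unadjusted p under 0.05, and DESeq2 called 0, 1 and 0. Of 16 retinoic acid pathway and response genes tested, 5 rose and 6 fell from D4 to D6, from Aldh1a2, which makes retinoic acid, at 7.49 to Cyp26a1, which degrades it, at -5.16. With GSKJ4 at D4H8, D5 and D6, 0 of these 16 were called by edgeR, with 6, 4 and 3 at an unadjusted p under 0.05, and DESeq2 called 3 higher and 1 lower at D4H8 and 0 at D5 and D6. Of 8 genes of MN columns and pools, 6 rose and 0 fell from D4 to D6 with a median of 2.01. At D4H8 with GSKJ4 0 of them rose and 2 fell, the lower being Nkx6-1 at -2.22, beside 3.96% of all genes called. At D5 and D6 0 of 8 were called by either tool, with 4 and 2 at an unadjusted p under 0.05 in edgeR. Aldh1a2 stands in both of the last lists. Nkx6-1 and Nkx6-2 stand in the last list and among the progenitor markers above, so the counts of these sets at D4H8 are not separate results.

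Genes most like each member over the 21 libraries were named by Pearson correlation of log2 CPM among 11118 genes with a mean of at least 100 counts. These values describe libraries that share stages and depth. For Pbx3 such a gene was Pkia, an inhibitor of protein kinase A, at r = 0.989. For Meis3 they were Celf3 (r = 0.99) and Brsk2 (r = 0.983), an RNA-binding protein and a kinase of neurons. Meis1 was most like Sept3 (r = 0.969), a neuronal septin, and Rab33a (r = 0.967), and Meis2 most like Klhl20 (r = 0.935) and Slc16a7 (r = 0.912). On the falling side Pbx2 was most like Plscr1 (r = 0.948) and the cell cycle factor E2f5 (r = 0.945), and for Pknox2 the value was r = 0.904 with Adgra3. The weakest were those of Pbx4, with Gpatch3 (r = 0.857) and Opn3 (r = 0.852), and of Pknox1, with Tut7 (r = 0.849) and Rmc1 (r = 0.815). Between members the highest was Pbx3 with Meis1 (r = 0.961) and the lowest Pbx2 with Pbx3 (r = -0.802).

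The members lie on 6 chromosomes of GRCm38. Pbx2 is at chr17:34591266-34597400 on the plus strand, and Pknox1 is on the same chromosome and strand at chr17:31564734-31607693. Pbx3 at chr2:34171457-34373142 and Meis2 at chr2:115863064-116065839 are both on the minus strand of chromosome 2. Meis1 is at chr11:18879817-19018985 (minus), Meis3 at chr7:16175090-16186504 (plus), Pbx4 at chr8:69832491-69872292 (plus) and Pknox2 at chr9:36890982-37147407 (minus). Exonic lengths ran from 2217 bases for Pbx4 to 12043 bases for Meis2. Counts were summed over all exons of a gene, so isoforms were not told apart.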

How the data were processed

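Poly-A RNA of 21 libraries was sequenced. The authors trimmed the reads with Fastp, aligned them to mm10 with Hisat2 and counted them with HTSeq, and they deposited raw counts per gene and FPKM per library. The counting strand is not given in the sources used here. FPKM recomputed from counts and exonic length matched the deposited FPKM to within 0.005. Groups and replicate numbers came from the labels. The members, lists, motifs and tests were chosen with earlier results of these data known. All 8 members were named, called or not, and for likeness the 2 genes with the highest correlation, some of which are not reported here. Of the lists, those with the highest and lowest called value were named.

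Counts were tested with edgeR 4.0.16 (R 4.3.3) by its quasi-likelihood test, with TMM scaling, the filterByExpr filter (minimum count 10) and adjustment by Benjamini and Hochberg over all genes tested, at a threshold of 0.05. Stage steps used the 12 untreated libraries, each GSKJ4 contrast its own 6, interactions 18 and treated steps 9. The 95% intervals are those of the fit without a replicate block. DESeq2 1.42.0, other scalings and filters, a replicate block, 1 fit over all libraries and leaving out each library were alternatives. Scripts were tested on simulated data. No 2 libraries of a group were duplicates, with chi-square per gene from 6.94 to 117. Same-numbered treated and untreated libraries had correlated deviations at D6 (0.663, 0.316 and 0.446), so that the numbers pair the samples there, but not for every number at D4H8 or D5 (lowest 0.0731 and 0.0384). Nothing further is said of how cultures were kept apart, so p-values measure the spread between these libraries. GENCODE M21 gave positions.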

Additional observations from a re-analysis of the deposited data

How the results depend on the processing

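Of 96 member values (8 genes in 12 contrasts), none with an unadjusted p under 0.05 changed sign under the alternatives run, and 43 of 1776 alternative values changed side of the threshold, 23 of them by leaving out 1 library. Values with an unadjusted p of 0.05 or more carry no stated direction, and their sign changed 105 times. The replicate block called 1 member with GSKJ4 at D4H8 (Meis3, -1.12, adjusted p = 0.0123) and 1 in the D6 minus D4H8 difference (Meis3, 1.15, adjusted p = 0.0402), stages whose numbers do not pair all samples, and Pknox2 from D5 to D6 (adjusted p = 0.0436). At D6, where the numbers pair the samples, the block changed no call of a member. No filter and 1 fit over 21 libraries also called 1 member with GSKJ4 at D4H8 (Meis3), and no filter called 1 in the differences of D5 and of D6 from D4H8. For the treated step from D5 to D6, RLE scaling and no filter left 1 of 2 calls, while DESeq2 and 1 fit over 21 libraries also called Meis1. Leaving out 1 library gave 2 to 5 calls from D5 to D6, 0 to 1 with GSKJ4 at D4H8, 0 to 1 in each of these differences and 1 to 2 for the treated step. The causes were not tested. Under upper-quartile scaling the all-gene median of the D4 to D6 change was -0.19, not -0.04. Each Meis share is a ratio within 1 library, so TMM-scaled RPKM leaves it the same by construction. Leaving out 1 of 3 libraries, an alternative chosen after the data were seen, cannot move a group mean by 1 SD. The shares were therefore not tested by these alternatives. With 3 libraries a group, the 95% intervals of the GSKJ4 contrasts reached from -1.87 to 1.18 on the log2 scale.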
